A study of Mus musculus with 7 samples.

Results

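Ifit1, Ifit2, Ifit3 and Ifit3b, 4 of the 13287 genes that could be named on the arrays, were followed through satellite cells sorted at 2 times after death and from living old mice. Each gene was read by 1 of the 18675 probe sets, a group of short probes along its exons, and no gene of the 4 had a second probe set annotated to it alone. The 4 genes were chosen by name and on measured values, because an earlier look at these arrays had placed them among the genes that differed between the 2 times after death. Their levels and differences are therefore given as a description with no p-value, and counts of them past a threshold, where given, follow from that choice.

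Satellite cells repair and renew skeletal muscle as its resident stem cells, and the study used these arrays to see how their gene expression differed between states of quiescence. They carried the Tg:Pax7-nGFP transgene in all 3 groups, in which the Pax7 promoter drives a nuclear GFP, and were sorted by size, granularity and that GFP straight into lysis buffer. The groups were cells taken 4 days post mortem (D4PM, 3 arrays), cells taken 2 days post mortem (D2PM, 2 arrays) and cells of living old mice (old, 2 arrays). An age of 8 to 12 weeks is stated for the post-mortem mice in a figure legend. For the living mice the labels and the methods give 24 to 26 months, whereas the design text of the series has 24 to 26 weeks and its title speaks of young adults. The effect of death and that of age cannot be told apart in a comparison with the old group. Only D4PM against D2PM sets cells of mice of 1 stated age side by side.

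Ifit genes (interferon-induced proteins with tetratricopeptide repeats) stand among the genes most strongly induced by type I interferon and by viral RNA. Sensors of foreign RNA activate the transcription factor IRF3, which binds the interferon-stimulated response element (ISRE) of these genes directly, and secreted interferon acts through its receptor and the transcription factor complex ISGF3 on the same element. In mouse, Ifit1 binds RNA whose cap lacks the 2′-O-methyl mark of the cell's own messenger RNA and blocks its translation. Ifit2 binds RNA as well, and Ifit3 is known in human as a partner that stabilises IFIT1 on RNA. Ifit3b is a near-identical mouse copy of Ifit3.

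The DNA before the start sites of the 4 genes is shown because it was searched for the element through which both routes act. Each run is the 250 bases upstream of a RefSeq start site, 5′ to 3′ on the gene's strand, from RefSeq on GRCm38.p6, with ISRE matches in capitals. The ISRE was searched on both strands as GAAA, any 2 bases and GAAA again, and the capitals read TTTC, any 2 bases and TTTC where the match lay on the other strand, as it did in all those below. Ifit1 lies at chr19:34640639-34640888 on the plus strand, Ifit3 at chr19:34583279-34583528, Ifit3b at chr19:34607707-34607956, and the windows of the 2 annotated starts of Ifit2 at chr19:34550444-34550693 and chr19:34550838-34551087, all on the plus strand.
Ifit1: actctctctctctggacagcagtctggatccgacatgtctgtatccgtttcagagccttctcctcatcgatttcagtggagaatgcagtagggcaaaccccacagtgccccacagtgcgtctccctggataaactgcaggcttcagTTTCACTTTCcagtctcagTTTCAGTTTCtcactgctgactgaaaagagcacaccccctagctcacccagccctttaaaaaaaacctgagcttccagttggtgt
Ifit3: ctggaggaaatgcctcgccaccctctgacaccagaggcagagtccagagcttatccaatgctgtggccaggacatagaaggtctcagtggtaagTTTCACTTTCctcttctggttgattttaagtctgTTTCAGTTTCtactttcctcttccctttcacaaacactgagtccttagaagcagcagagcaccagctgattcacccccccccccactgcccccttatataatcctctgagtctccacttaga
Ifit3b: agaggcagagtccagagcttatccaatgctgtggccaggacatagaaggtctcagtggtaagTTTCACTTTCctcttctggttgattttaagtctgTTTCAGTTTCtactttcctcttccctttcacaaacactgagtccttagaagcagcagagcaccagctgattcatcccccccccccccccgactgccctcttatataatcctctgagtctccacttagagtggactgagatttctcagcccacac
Ifit2, start 1: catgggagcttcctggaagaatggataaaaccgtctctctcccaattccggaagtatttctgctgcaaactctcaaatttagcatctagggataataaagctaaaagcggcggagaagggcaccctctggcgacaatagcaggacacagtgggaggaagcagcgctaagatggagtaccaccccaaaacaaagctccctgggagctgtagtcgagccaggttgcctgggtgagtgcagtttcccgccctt
Ifit2, start 2: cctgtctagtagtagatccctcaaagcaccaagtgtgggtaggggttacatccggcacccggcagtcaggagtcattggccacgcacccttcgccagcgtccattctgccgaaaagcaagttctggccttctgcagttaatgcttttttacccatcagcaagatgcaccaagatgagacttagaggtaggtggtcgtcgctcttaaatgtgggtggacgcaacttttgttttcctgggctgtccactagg

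Ifit1, Ifit3 and Ifit3b each held 2 exact ISRE matches in this window. Those of Ifit1 lay 104 to 95 and 85 to 76 bases upstream of the start site, with 9 bases between them. In Ifit3 the matches lay 156 to 147 and 122 to 113 bases upstream and in Ifit3b 188 to 179 and 154 to 145 bases upstream, with 24 bases between the pair in both genes. Every pair was made of the same matched sequences, GAAAGTGAAA farther from the start and GAAACTGAAA nearer to it. The windows of Ifit3 and Ifit3b were 94.5% identical over 274 aligned columns, while the 4 other pairs of windows that were aligned had 52.9% to 56.5%. Neither window of Ifit2 held an exact match. The window at its first start held TTCNNNGAA, the gamma-activated site (GAS), 241 to 233 bases upstream.

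An ISRE match stood in 3.44% of 32851 RefSeq promoter windows, which run from 250 bases before to 50 bases after each start site, and a GAS match in 8.30% of them. With 1 mismatch allowed outside the spacer, all 4 genes held an ISRE match, as did 35.4% of all windows. Ifit1bl2, a neighbouring gene of the family that runs the other way, shared 245 of the 300 bases of its first window with that of Ifit1, and the same 2 matches fell 70 to 61 and 51 to 42 bases upstream of its start. Ifit1bl1, which was not analysed here for expression, held 1 match in each of its 2 windows. A match is a description of the letters and no evidence of binding.

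**Figure D1:**
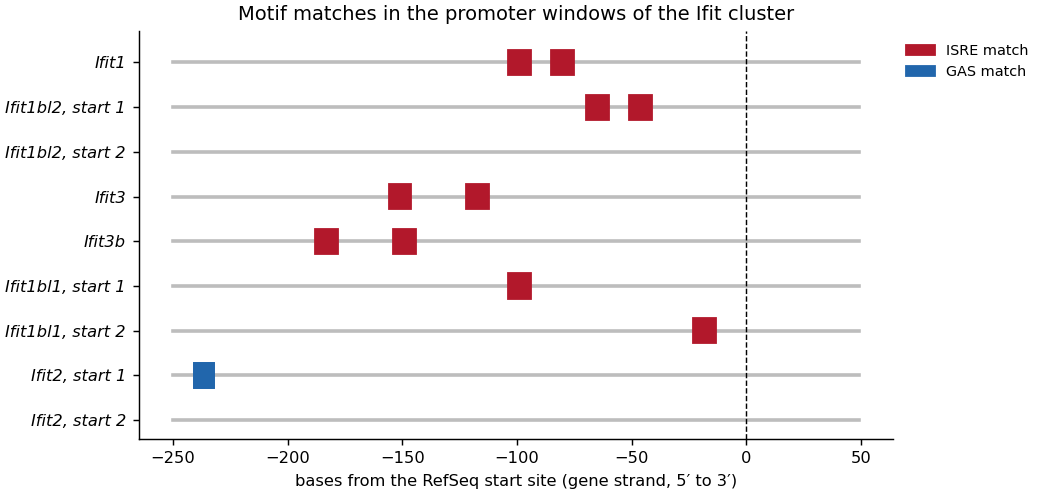
Exact motif matches in the RefSeq promoter windows (GRCm38.p6) of the 6 genes of the Ifit cluster, by their distance in bases from the start site on the gene's strand. Red boxes are ISRE matches and the blue box a GAS match. Ifit1, Ifit3 and Ifit3b each hold 2 ISRE matches upstream of the start, and neither Ifit2 window holds one.

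The arrays were alike in their overall distribution, with medians between 6.11 and 6.19 on the log2 scale. The satellite cell markers were present throughout: the mean log2 level of 9 of them lay between 9.73 and 10.02 on D4PM arrays, 9.84 and 9.89 on D2PM arrays and 9.75 and 9.93 on old arrays. The mean hides single markers that moved. Against old cells 1 was higher and 1 lower at D2PM in limma, where 10.3% and 9.11% of all genes were. At D4PM 2 were higher and 2 lower, where 12.4% and 15.5% of all genes were. Markers of endothelium and of muscle fibres were higher on both days than in old cells. Of 15 endothelial and 11 myofibre genes tested, 6 and 10 were higher at D2PM in limma, and 12 and 10 at D4PM. The shares over all genes were 10.3% and 12.4%, and 0 of either list were lower. Between the days 0 of them differed in limma, while 14 and 6 had a higher mean at D4PM. For 15 endothelial genes the mean level was 6.88 to 7.44 at D4PM, 6.90 to 6.91 at D2PM and 5.92 to 6.55 in old cells, and for 12 myofibre genes it was 8.02 to 8.34, 8.02 to 8.18 and 6.91 to 7.27 in the same order. Fibroadipogenic progenitor markers (10 genes) were highest at D2PM, at 7.31 to 7.70 at D4PM, 7.85 to 7.94 at D2PM and 7.21 to 7.74 in old cells. The part of these lists in the Ifit differences was not tested. Immune cells also express Ifit genes. The mean level of 11 macrophage and monocyte genes was 5.07 to 5.31 at D4PM, 5.08 to 5.34 at D2PM and 5.14 to 5.74 in old cells, and that of 3 dendritic cell genes was 4.91 to 5.03, 4.80 to 4.98 and 5.07 to 5.10, with Siglech, Flt3, Itgax and Ccr9 not analysed here. Neither list had all post-mortem arrays above the old arrays. The macrophage list held 16 genes and the dendritic list 7, so part of each was not read here. Their part in the Ifit differences was not tested. Neutrophil markers ranged from 5.28 to 6.87 within D4PM alone. For 7 lymphocyte markers, of which 0 were bright enough to be tested, the mean level was 4.37 to 4.46 at D4PM, 4.38 to 4.43 at D2PM and 4.21 to 4.35 in old cells, so that every post-mortem array lay above both old arrays. The part of the lymphocyte markers in the Ifit differences was not tested.

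Ifit1 had log2 levels of 11.56, 11.48 and 11.32 in D4PM cells, 10.44 and 10.41 in D2PM cells and 5.94 and 5.71 in old cells. The groups stood wholly apart, and the step between D2PM and old was far larger than that between the 2 days. The means were 11.46 ± 0.12 (SD, n = 3) at D4PM, 10.42 ± 0.02 (SD, n = 2) at D2PM and 5.83 ± 0.16 (SD, n = 2) in old cells. D4PM exceeded D2PM by 1.03 (SE 0.13) on the log2 scale, a fold of 2.04, and old by 5.63 (SE 0.13), a fold of 49.5. D2PM exceeded old by 4.60 (SE 0.14), a fold of 24.2. Ifit1 had the largest difference of the 9944 genes tested in both comparisons with old cells.

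Ifit2 had levels of 8.32, 8.44 and 8.09 at D4PM, 7.21 on both D2PM arrays and 5.14 and 4.81 in old cells. The order of the groups was the same as for Ifit1, with no overlap. Ifit2 averaged 8.28 ± 0.18 (SD, n = 3) at D4PM and 4.98 ± 0.23 (SD, n = 2) in old cells, and the deposited value was identical on the 2 D2PM arrays, so that their SD of 0 does not measure the spread of this gene. D4PM lay 1.07 (SE 0.15) above D2PM and 3.31 (SE 0.15) above old, and D2PM lay 2.23 (SE 0.16) above old, which are folds of 2.11, 9.88 and 4.69. Each SE pools the spread of all groups, the SD of 0 included, and may be too small. Of the 4 genes Ifit2 had the smallest difference from old cells on both days.

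Ifit3 had levels of 10.52, 10.79 and 10.40 at D4PM, 9.06 and 8.87 at D2PM and 6.48 and 6.20 in old cells. Again no array of a group reached into another group. The means were 10.57 ± 0.20 (SD, n = 3), 8.97 ± 0.13 (SD, n = 2) and 6.34 ± 0.20 (SD, n = 2) for D4PM, D2PM and old. The log2 difference of Ifit3 between the days, 1.60 (SE 0.15) or 3.04-fold, was the widest of the 4 genes and the second highest of all 9944. D2PM exceeded old by 2.63 (SE 0.17), a fold of 6.19, and D4PM exceeded old by 4.23 (SE 0.15), a fold of 18.8.

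Ifit3b had levels of 7.88, 8.49 and 7.53 at D4PM, 6.34 and 6.55 at D2PM and 3.89 and 3.87 in old cells. The D4PM arrays were more spread than for the other 3 genes, yet the lowest of them stood above both D2PM arrays. Ifit3b averaged 7.96 ± 0.49 (SD, n = 3) at D4PM, 6.45 ± 0.15 (SD, n = 2) at D2PM and 3.88 ± 0.02 (SD, n = 2) in old cells. D4PM exceeded D2PM by 1.51 (SE 0.22) and old by 4.09 (SE 0.22), and D2PM exceeded old by 2.57 (SE 0.24), folds of 2.86, 17.0 and 5.94. The mean old levels of Ifit3b (3.88) and Ifit2 (4.98) lay under 5.12, the mean level that a gene had to reach over all arrays to be tested, and near that floor RMA values can understate a difference. Since Ifit3 and Ifit3b are near-identical copies, the probes of one may also have read RNA of the other. The probe sequences were not examined, and the values of this pair may not be independent readings.

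**Figure D2:**
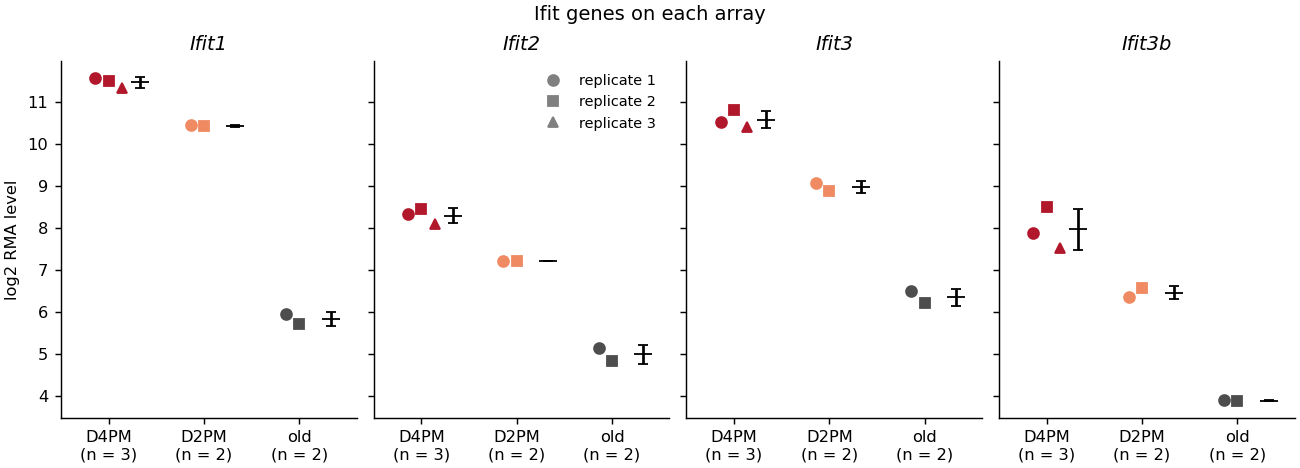
Log2 RMA level (vertical axis) of the 4 Ifit genes on each of the 7 arrays, with 1 symbol per replicate number and the mean ± SD beside each group (D4PM, n = 3; D2PM, n = 2; old, n = 2). In every panel the D4PM arrays lie above the D2PM arrays and these above the old arrays. Levels of different genes come from different probe sets and are not to be set against each other.

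All 4 Ifit genes were among the genes with an adjusted p under 0.05 in limma that were higher at D4PM than at D2PM, which were 0.161% of the 9944 tested (16 genes), while 0.0302% were lower (3 genes). All 4 also differed by at least 1 on the log2 scale, as 0.181% of genes did, and had every D4PM array above every D2PM array, as 9.69% of genes did. The genes were chosen with this comparison known, so these counts are no support for it. Leaving out D4PM replicate 3 kept 4 of them past the threshold, leaving out D4PM replicate 1 or 2 or either old array kept 1, and leaving out either D2PM array kept 0. The single differences moved little in those fits, between 0.98 and 1.10 for Ifit1, 1.00 and 1.17 for Ifit2, 1.49 and 1.70 for Ifit3 and 1.25 and 1.73 for Ifit3b. In bulk RNA a higher level in every cell and a larger share of cells that express a gene cannot be told apart.

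Against old cells, all 4 genes were past the threshold and higher at D2PM, as were 10.3% of genes, and at D4PM, as were 12.4%. All 4 were also at least 1 higher on the log2 scale at D2PM and at D4PM, which 2.25% and 2.28% of genes were, without overlap of arrays, which held for 31.6% and 26.6%. These counts too come from comparisons known when the genes were chosen. The median log2 difference of the 4 genes was 1.29 for D4PM against D2PM, 2.60 for D2PM against old and 4.16 for D4PM against old, where the medians over all genes tested were -0.03, 0.00 and -0.00.

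The share of the step from old cells that was already there on day 2 was largest for Ifit1. For Ifit1 the D2PM difference was 81.7% of the D4PM difference on the log2 scale, and 80.7% to 82.5% when each array was left out in turn. For Ifit2 the share was 67.5% (65.5% to 69.1%), for Ifit3b 62.9% (59.7% to 67.2%) and for Ifit3 62.1% (59.9% to 64.3%). The range of Ifit3b overlapped those of Ifit2 and Ifit3. These shares are a description, and the difference between them was not tested. They rest on the old levels, which for Ifit2 and Ifit3b lay under the filter value, where differences can be understated. Ifit1 at D4PM stood at 11.5 of a highest value of 13.3 anywhere in the table, and whether its probes were near saturation was not tested.

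**Figure D3:**
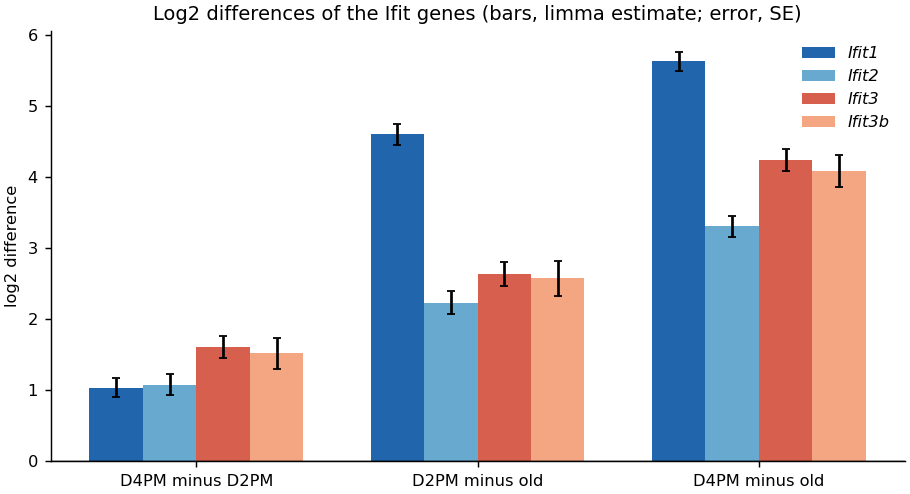
Log2 differences (vertical axis) of the 4 Ifit genes for D4PM minus D2PM, D2PM minus old and D4PM minus old. Bars are limma estimates and error bars their SE. Ifit1 has the tallest bar against old cells (4.60 and 5.63) and the lowest between the days (1.03), while Ifit3 has the tallest between the days (1.60).

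Among the D4PM arrays the 4 genes did not keep one order. Replicate 3 was the lowest for each of them, replicate 2 the highest for Ifit2, Ifit3 and Ifit3b, and replicate 1 the highest for Ifit1. Endothelial markers were also lowest on replicate 3 (6.88) but highest on replicate 1 (7.44), and their part in this order was not tested. Over the 7 arrays the Ifit genes correlated pairwise with Pearson r between 0.97 and 0.997, a value that mostly reflects the 3 group steps that they share. The closest pair was Ifit2 and Ifit3 (r = 0.997), not Ifit3 and its copy Ifit3b (r = 0.993).

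The Ifit genes lie beside each other on the chromosome. In the RefSeq gene order the cluster runs Ifit2, Ifit3, Ifit1bl1, Ifit3b, Ifit1bl2 and Ifit1. Ifit1bl2, whose first promoter window overlaps that of Ifit1, had levels of 3.05, 3.37 and 3.09 at D4PM, 3.13 and 3.13 at D2PM and 2.81 and 3.09 in old cells. These levels overlapped between the groups and lay under the filter, so that Ifit1bl2 was not tested. The differences were 0.04 for D4PM against D2PM and 0.22 for D4PM against old.

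Of the 4 measured genes on each side of the cluster, 6 were tested and 0 differed between D4PM and D2PM in limma. At an unadjusted p under 0.05 the count was 1, where 772 of all 9944 genes had such a p. Nearest on the Ifit2 side lies Lipa, the lysosomal acid lipase gene, with a difference of 0.06 (SE 0.17), and on the Ifit1 side the pantothenate kinase gene Pank1, which was not tested, with one of -0.05. Ankrd1, a stress-induced muscle ankyrin gene, had 0.62 (SE 0.22, adjusted p = 0.546). Against old cells Lipa was higher at D2PM by 0.82 (adjusted p = 0.0131) and at D4PM by 0.87 (adjusted p = 0.00374), and Ankrd1 by 0.93 (adjusted p = 0.0192) and 1.56 (adjusted p = 0.00053). Acta2, Fas, Rpp30 and Pcgf5 did not pass the threshold in any comparison, and Ch25h was too dim to test. Each of the 4 Ifit genes, chosen with this comparison known, had a wider difference from old cells than any of these neighbours.

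**Figure D4:**
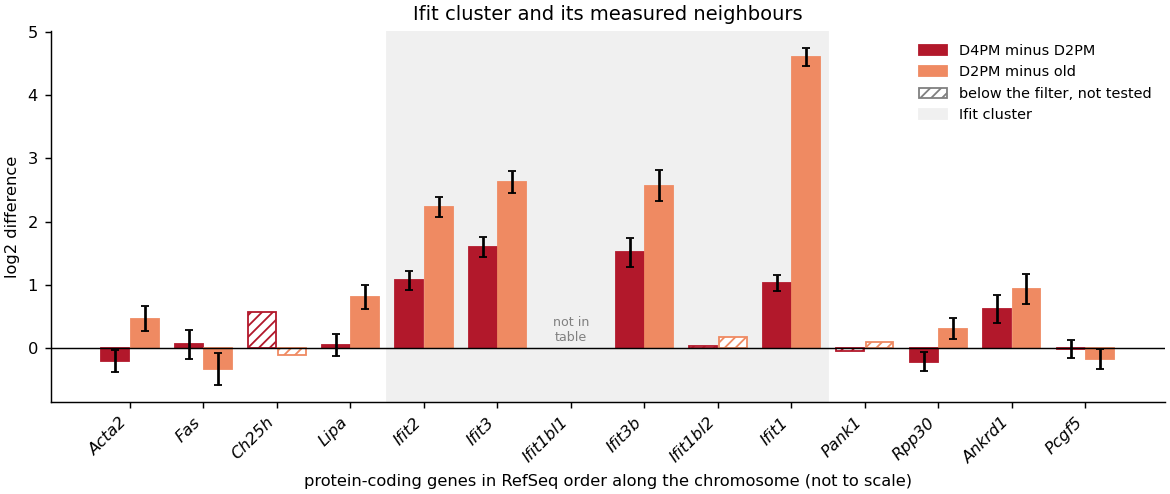
Log2 differences (vertical axis) of D4PM minus D2PM (dark red) and D2PM minus old (orange) for the genes of the Ifit cluster (grey band) and the 4 measured protein-coding genes on each side, in RefSeq order and not to scale. Error bars are SE, and hatched bars are genes under the filter, which were not tested. Ifit2, Ifit3, Ifit3b and Ifit1, chosen with these comparisons known, stand out from Lipa and Pank1 beside them and from Ifit1bl2 within the cluster.

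The other genes of the pathway were taken from lists of sensors, kinases and IRF factors, interferons, the receptor with ISGF3, feedback inhibitors and antiviral effectors. Of 81 genes listed besides the Ifit genes, 63 were among those named here and 55 were tested. Between D4PM and D2PM 3 of the 55 rose and 0 fell in limma, where 0.161% of all genes were higher and 0.0302% lower. The median log2 difference of the 55 was 0.17, and at an unadjusted p under 0.05 the counts were 17 and 0. Of all 9944 genes, 772 had such a p between the days in either direction. The same background applies to the unadjusted counts between the days in the lists below. At D2PM 8 rose and 8 fell against old cells (median -0.21), where 10.3% of all genes were higher and 9.11% lower. At D4PM 13 rose and 8 fell (median 0.05), where 12.4% of all genes were higher and 15.5% lower. The Ifit medians of 1.29, 2.60 and 4.16 lie above those of the lists in all 3 comparisons. The Ifit genes were chosen with these comparisons known, so their place above the lists is no support for a difference from the pathway. The count of 3 between the days was 3 without D4PM replicate 3 and 0 without any other single array, and the counts of 13 and 8 genes that rose against old cells were 8 at D4PM without either old array and 5 at D2PM without old replicate 2.

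Among the sensors of nucleic acids and their adaptors 10 genes were tested, 0 of which changed between the days in limma (2 at an unadjusted p under 0.05). Ifih1, which encodes the sensor MDA5 of long double-stranded RNA, had levels of 9.50, 9.34 and 8.76 at D4PM, 8.43 and 8.41 at D2PM and 6.44 and 6.49 in old cells. Its groups kept the order seen for the Ifit genes, without overlap. The log2 difference of Ifih1 was 0.78 (SE 0.19, adjusted p = 0.239) between the days, 1.96 (adjusted p = 0.000227) for D2PM against old and 2.74 (adjusted p = 4.82e-06) for D4PM against old. Ddx58, the RIG-I sensor of RNA with a 5′ triphosphate, rose by 0.87 (SE 0.23, adjusted p = 0.0143) at D4PM against old and differed by 0.31 (adjusted p = 0.414) at D2PM. Mavs, the mitochondrial adaptor of both sensors, rose by 0.52 (adjusted p = 0.0343) at D2PM and by 0.50 (adjusted p = 0.0212) at D4PM, and Myd88, an adaptor of Toll-like receptors, fell by 0.77 (adjusted p = 0.0158) at D4PM. Zbp1 and Trim25 had 0.25 and 0.20 between the days and did not pass the threshold.

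Of 8 kinases, scaffolds and IRF factors, the step between sensors and the ISRE, 0 rose in any comparison in limma (1 between the days at an unadjusted p under 0.05), and 1 fell at D2PM and 3 at D4PM against old, where 9.11% and 15.5% of all genes were lower. Irf3, the factor that RNA sensors activate through phosphorylation, had differences of 0.06 for D4PM against old (SE 0.13, adjusted p = 0.744) and of -0.00 between the days. Irf7, which amplifies interferon production, had levels of 6.30, 6.34 and 6.25 at D4PM, 5.79 and 6.38 at D2PM and 6.53 and 6.67 in old cells, and its difference from old cells of -0.31 at D4PM did not pass the threshold (adjusted p = 0.192). Irf8, a factor of myeloid cells, fell by 1.07 (adjusted p = 0.0017) at D2PM and by 1.19 (adjusted p = 0.000302) at D4PM against old cells. The kinase gene Tbk1, whose product phosphorylates IRF3, and Tank, its scaffold, fell at D4PM against old by 0.69 (adjusted p = 0.00558) and 0.58 (adjusted p = 0.00629). Between the days Irf1 and Irf2 had differences of 0.39 and 0.20 and Irf5 one of -0.02.

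Ifnb1, which encodes interferon beta, was the one interferon gene of 4 tested that changed. Its levels were 8.68, 9.94 and 7.97 at D4PM, 7.59 and 7.13 at D2PM and 4.38 and 4.45 in old cells. Each D4PM array lay above each D2PM array, but the D4PM arrays spread over almost 2 log2 units and, as for Ifit2, Ifit3 and Ifit3b, replicate 2 was the highest. Ifnb1 rose by 2.94 (SE 0.45, adjusted p = 0.0017) at D2PM and by 4.44 (SE 0.41, adjusted p = 4.09e-05) at D4PM against old, and its difference between the days, 1.50 (SE 0.41), did not pass the threshold (adjusted p = 0.362). Ifna4 was too dim to test, with levels of 5.34, 6.41 and 4.11 at D4PM, 4.15 and 4.17 at D2PM and 3.77 on both old arrays. Ifna2, Ifna5 and Ifnl2 differed by at most 0.27 in size in any comparison and did not pass the threshold.

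Of 4 genes tested of the interferon receptor and ISGF3, 0 rose in any comparison in limma (1 between the days at an unadjusted p under 0.05), and 3 fell at D2PM and 2 at D4PM against old, where 9.11% and 15.5% of all genes were lower. Irf9, the DNA-binding subunit of ISGF3, had levels of 6.76, 6.54 and 6.52 at D4PM, 6.39 and 6.76 at D2PM and 7.88 and 7.71 in old cells, so that the post-mortem arrays lay below the old arrays and the 2 days overlapped. Irf9 fell by 1.22 (adjusted p = 0.000885) at D2PM and by 1.19 (adjusted p = 0.00029) at D4PM against old. Jak1, a kinase of the receptor, fell by 0.74 (adjusted p = 0.00774) and 0.76 (adjusted p = 0.00254), and Stat2 fell by 0.52 (adjusted p = 0.0417) at D2PM, while its difference at D4PM was -0.11 (adjusted p = 0.615). Ifnar2, a receptor chain, had -0.32 at D4PM (adjusted p = 0.097). Between the days Stat2 had 0.42 (adjusted p = 0.546) and Irf9 0.03. Isg15 was not analysed here. Socs3, the one feedback inhibitor tested, did not pass the threshold in any comparison.

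Among 28 antiviral effectors tested, 26 had a D4PM mean above that of D2PM, and 3 passed the threshold, where 0.161% of all genes were higher. At an unadjusted p under 0.05 the counts were 11 higher and 0 lower. The median log2 difference of the list was 0.24, where that of all genes tested was -0.03. Mx2, a dynamin-like GTPase against viruses, had levels of 7.25, 6.80 and 6.94 at D4PM, 5.05 and 5.97 at D2PM and a mean of 4.97 ± 0.05 (SD, n = 2) in old cells, a rise of 1.49 (SE 0.23, adjusted p = 0.0347) between the days. The D2PM arrays of Mx2 stood nearer to old cells, with a difference of 0.54 (adjusted p = 0.158). Oasl2, of the oligoadenylate synthetase-like family, rose by 1.43 (SE 0.19, adjusted p = 0.0196) between the days and by 1.72 (adjusted p = 0.00045) at D2PM against old. Cxcl10, an interferon-induced chemokine, rose by 0.79 (SE 0.12, adjusted p = 0.0347) and 3.12 (adjusted p = 2.8e-07).

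Against old cells 9 of the 28 effectors rose at D4PM and 2 fell (median 0.08), where 12.4% of all genes were higher and 15.5% lower, and 5 rose and 4 fell at D2PM (median -0.16), where 10.3% were higher and 9.11% lower. Cxcl10 rose by 3.90 (adjusted p = 8.18e-09), Oasl1, a repressor of Irf7 translation, by 3.43 (adjusted p = 9.81e-07), Rsad2, the antiviral enzyme viperin, by 3.22 (adjusted p = 5.63e-05) and Oasl2 by 3.15 (adjusted p = 1.8e-06). The differences of Ifit1 (5.63), Ifit3 (4.23) and Ifit3b (4.09) were larger than each of these, while that of Ifit2 (3.31) was smaller than those of Cxcl10 and Oasl1. Helz2 fell by 1.16 (adjusted p = 0.000599) and Ifi35 by 0.72 (adjusted p = 0.00226). The other 17 effectors tested, among them Ifitm3, Ifi27, Eif2ak2 and Oas1a, did not pass the threshold at D4PM against old. Mx1 was too dim to test.

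**Figure D5:**
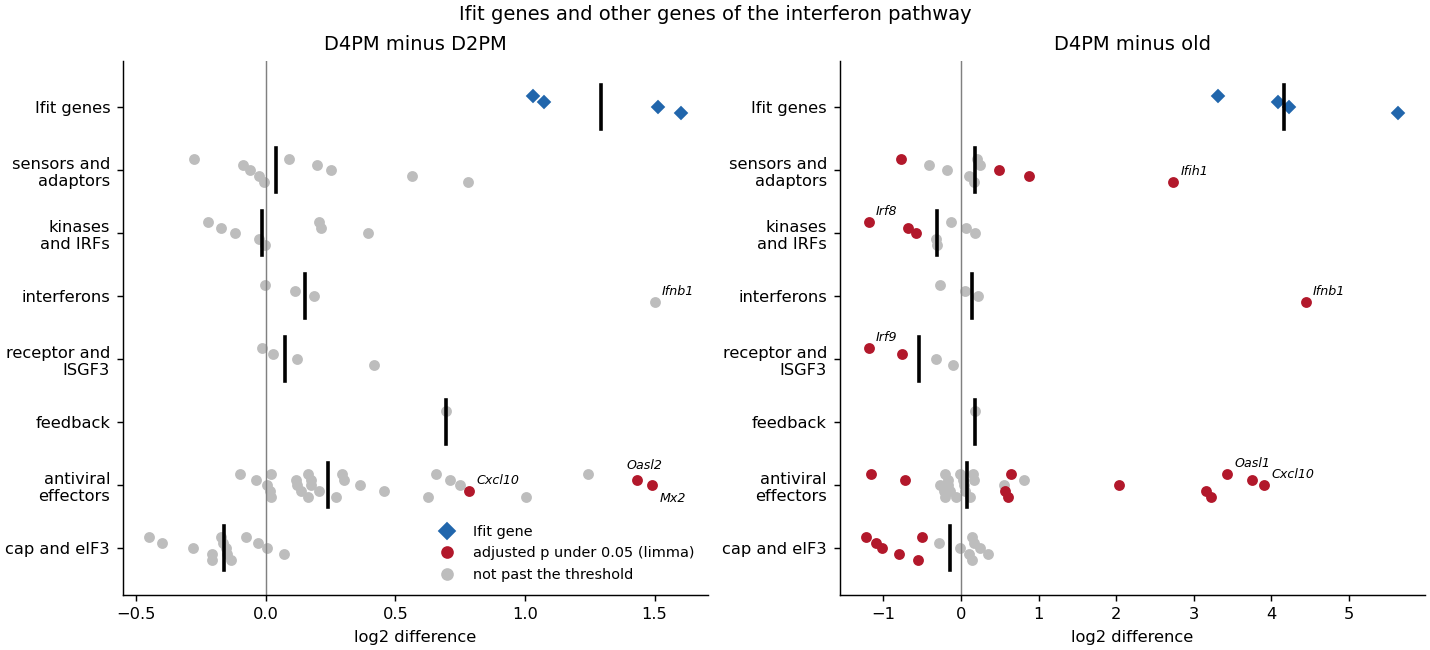
Log2 differences (horizontal axis) of the Ifit genes (blue diamonds, no test) and of the tested genes of the other lists (circles, 1 per gene) for D4PM minus D2PM (left) and D4PM minus old (right). Red circles have an adjusted p under 0.05 in limma, and black bars are list medians. The Ifit genes, chosen with these comparisons known, lie at 1.03 to 1.60 and at 3.31 to 5.63, to the right of every list median. All 4 genes of the receptor and ISGF3 list lie below 0 against old cells.

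An ISRE match was found both among pathway genes that rose and among those that did not. Of the 55 tested, 45 had a RefSeq window and 15 of these (33.3%) held an exact match, against 271 of 7877 (3.44%) of all tested genes with a window. Among the genes that rose at D4PM against old, 5 of 11 with a window held one (Ddx58, Ifih1, Rsad2, Bst2 and Cxcl10), and among the other genes 10 of 34 (29.4%) did, including Stat2, Oas1a, Eif2ak2 and Ifitm3. Ifit2, with no exact match within 250 bases, had a difference of 3.31 at D4PM against old. It did hold a match when a mismatch outside the spacer was allowed. Ifit1bl2, with 2 exact matches, had levels of 2.81 to 3.37, under the filter. The matches are counts of letters, and their part in the levels and differences was not tested.

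Genes of the messenger RNA cap and of translation initiation were listed as well. They encode enzymes that methylate the cap, the cap-binding factor and the subunits of eIF3, the initiation complex that IFIT proteins bind in human. Cmtr1, also listed, was not analysed here. Of 14 tested 0 changed between the days in limma (1 at an unadjusted p under 0.05). Against old cells 4 fell and 0 rose at D2PM, and 6 fell and 0 rose at D4PM, where 2 and 1 were higher at an unadjusted p under 0.05. Of all 9944 genes, 3270 at D2PM and 3953 at D4PM had such a p in either direction. Rnmt, the cap guanine-N7 methyltransferase, fell by 1.22 (adjusted p = 0.0051) at D4PM, Cmtr2, which methylates the second nucleotide, by 1.02 (adjusted p = 0.00182), Eif3b by 1.10 (adjusted p = 0.000136) and Eif4e, the cap-binding factor, by 0.79 (adjusted p = 0.00105). Most eIF3 subunits, from Eif3d to Eif3m, did not pass the threshold. The direction was thus opposite to that of the Ifit genes in the members that changed, where 9.11% of all genes were lower at D2PM and 15.5% at D4PM.

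Genes whose levels ran most like the mean of the 4 Ifit genes were ranked by Pearson r over the 7 arrays. The first 10 were Oard1, Lims2, Slx1b, Cutc, Oasl1, Tubg1, Cxcl10, Ifih1, Polr2g and Siva1, with r between 0.989 and 0.996, and 3 of them belong to the pathway lists. Such values are common here, since 479 of the 9940 other genes had r above 0.9 and 138 above 0.95, and the points share 3 group steps. When the size of the steps was compared too, by the root mean square distance of the deviations from each gene's mean, the nearest 10 were Cxcl10 (0.269 log2 units), Tnf, Oasl1, Ifnb1, Ccl5, Rnu3a, Vaultrc5, Rsad2, Oasl2 and Ifih1, of which 7 are pathway genes. The 2 rankings shared 3 genes.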

How the data were processed

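RNA of sorted satellite cells was amplified with Ovation Pico V2 and measured on 7 arrays of the type GeneChip Mouse Gene 1.0 ST. The authors deposited log2 values made by RMA, which corrects the background, brings the arrays to a common distribution and joins the probes of each set into 1 value. Probe sets that seemed not to be expressed had been removed by the authors, at a threshold not given in the sources used here, and no probe set had an SD under 0.0914 over the arrays. RMA and limma are the tools that the submitters' processing notes name. The genome build of the probe annotation is not given in the sources used here. The number of arrays limits the precision.

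Of 18675 probe sets, 14480 had 1 gene, 774 several and 3421 none listed, and 14425 of the first matched a RefSeq gene table of GRCm38.p6 by Entrez identifier, with 0 symbols changed. A gene was read by its brightest probe set, and the 9944 of 13287 genes with a mean of at least 5.12 (the 25th percentile) were tested with limma 3.58.1 in R 4.3.3, in 1 fit of 3 group means (4 residual degrees of freedom, moderated without trend), with Benjamini-Hochberg adjusted p under 0.05 over all genes. Whether a group's arrays stand for separate mice is not stated, and the p-values then reflect array-to-array spread, which may be technical.

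Members and lists were chosen with earlier results of these data known. Besides the Ifit genes, the text names the genes of the cluster, the 4 measured protein-coding genes nearest on each side, the 10 genes most like the Ifit mean, up to 4 genes of each pathway list with the largest moderated statistic in D4PM against D2PM and in D4PM against old, and Ifnb1, Irf3, Irf7, Irf9, Stat2, Isg15, Ddx58 and Ifih1; another gene of this rule is not reported here. Other genes named (Ifna4, Helz2, Ifi35, Bst2, Mx1, Ifitm3, Ifi27, Eif2ak2, Oas1a, the cap and eIF3 genes, and the genes nearest by distance) were chosen after their values were seen. Promoters were searched and aligned in Python 3.11.15 with Biopython 1.88. The fit was tested on simulated data.

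The fits were repeated with array weights, with a robust and trended prior, after median centring, after a second quantile normalisation, without the filter, at the 50th percentile, with all probe sets of a gene averaged, with replicate number as block, with only the 2 groups compared, without each array in turn, and with Student's t-test (the methods' t-test). The study's methods name Student's t-test in their general section on statistics. For the arrays they name limma's moderated statistic, so the methods' t-test is not the study's own test of these arrays.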

Additional observations from a re-analysis of the deposited data

How the results depend on the processing

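The single differences of Ifit1, Ifit2, Ifit3 and Ifit3b kept their direction and moved by less than the spread between arrays under every alternative that gave a value. Their median for D4PM against D2PM was 1.07 with the 50th percentile filter, which removed Ifit3b, and 1.14 to 1.43 when each array was left out. For D2PM against old it was then 2.52 to 2.68, and for D4PM against old 3.97 to 4.31. The medians of 1.07 and of 3.97 (without D4PM replicate 2) moved by more than 0.182, the pooled SD within groups of the mean of the 4 genes.

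The counts were less steady. Of 9944 genes 19 were called between D4PM and D2PM, 54 with the replicate number as a block, 2 when only those groups were fitted, 0 with the methods' t-test (692 at an unadjusted p under 0.05) and 0 to 21 when each array was left out. The count was 0 without either D2PM array (358 and 781 at an unadjusted p under 0.05), where the lone D2PM array is assumed to vary like the other groups, 2 without D4PM replicate 2 or either old array and 3 without D4PM replicate 1. The 3 pathway genes that rose between the days became 9 with the block, 0 with the methods' t-test (6 unadjusted), 0 with only the 2 groups (12 unadjusted) and 0 to 3 in the leave-one-out fits. The labels do not say whether the replicate numbers pair the arrays. Deviations of same-numbered arrays correlated between -0.08 and 0.05. In groups of 2 arrays the deviations mirror each other, so these values are not separate readings and do not settle the question.

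Against old cells, 1931 genes were called at D2PM and 15 with the methods' t-test, and 323 to 2054 with an array left out (323 without D2PM replicate 1, 614 without D2PM replicate 2, 1280 without old replicate 1 and 346 without old replicate 2). At D4PM these were 2770, 14 and 911 to 2512, the lowest without old replicate 2. The 8 pathway genes that rose at D2PM were 0 with the methods' t-test (10 unadjusted) and 5 to 9 with an array left out, and the 13 at D4PM were 1 and 8 to 15. Of the 10 genes most like the Ifit mean by Pearson r, 3 were among the nearest 10 by distance and 1 at the highest Spearman rho. The identity of the Ifit proteins was planned but not run. With 2 or 3 arrays a group, their number limits the precision of every value.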
